A study of Mus musculus with 9 samples.

Results

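The genes described here are non-collagen genes of the stromal extracellular matrix, of mesenchymal cells and of the bone marrow niche. They were chosen by name from a list, with earlier results of these data known. The list had 35 entries, of which 1 was a placeholder that names no gene. Of the 34 gene symbols, 32 were measured, out of 18193 genes measured in all. Fbn1 and Efemp2 were not analysed here. Each gene was represented by the probe set with the highest mean over the 9 arrays, and all values below are deposited log2 array values, log2 differences between groups, or the linear values computed from them.

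The arrays measured RNA from the non-adherent cells collected at the end of a 3-day co-culture. LSK cells, the lineage-negative Sca-1+ c-Kit+ marrow fraction enriched for hematopoietic stem and progenitor cells, were sorted from wild-type C57/Bl6 mice whose age the labels do not state, and were seeded on OP9 stroma. In the OP9-DL1+CompoundE group (3 arrays) the feeder expressed the Notch ligand Delta-like 1 and the medium held 1 µM of CompoundE, an inhibitor of the γ-secretase that releases the active part of Notch. The OP9-DL1 group (3 arrays) had the same feeder without the inhibitor, and the OP9-GFP group (3 arrays) had the control feeder. All 9 cultures contained OP9 cells, a line derived from the calvaria of op/op mice, whose Csf1 gene carries a mutation that leaves them without functional M-CSF. The labels do not tell whether the replicates were separate cultures or animals, so p-values measure the spread between arrays, which may be technical.

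Stromal cells of the marrow secrete the fibres and glycoproteins that blood cells adhere to, and present the cytokines and chemokines that keep stem cells in place. Cxcl12 holds progenitors that carry Cxcr4, stem cell factor (Kitl) acts on Kit, M-CSF (Csf1) acts on Csf1r, and Vcam1 binds the integrin that contains Itga4. Lysyl oxidases cross-link collagen and elastin, fibulins and nidogens join matrix networks, and TIMPs restrain the metalloproteinases that cut them.

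Most of the stromal genes gave signal above background in the harvested, non-adherent cells. Of the 32 genes, 29 had a group mean above 3.64, the highest value of 27 probe sets for bacterial control transcripts, in at least 1 group. The proteoglycans Dcn and Lum, widely used as fibroblast markers, and the growth factor binding protein Igfbp5 stayed at or below that value in every group mean. In bulk RNA, a change in the number of cells that express a gene and a change in RNA per cell cannot be told apart. Array medians ran between 4.78 and 4.94, and the number of arrays limits the precision. In 6 members (Fbln2, Fbln5, Pdgfra, Vcam1, Cdh11 and S100a6) 2 or more arrays of a group held exactly equal values, as they did for 21.9% of all genes, and such ties make the spread between replicates look smaller.

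**Figure D1:**
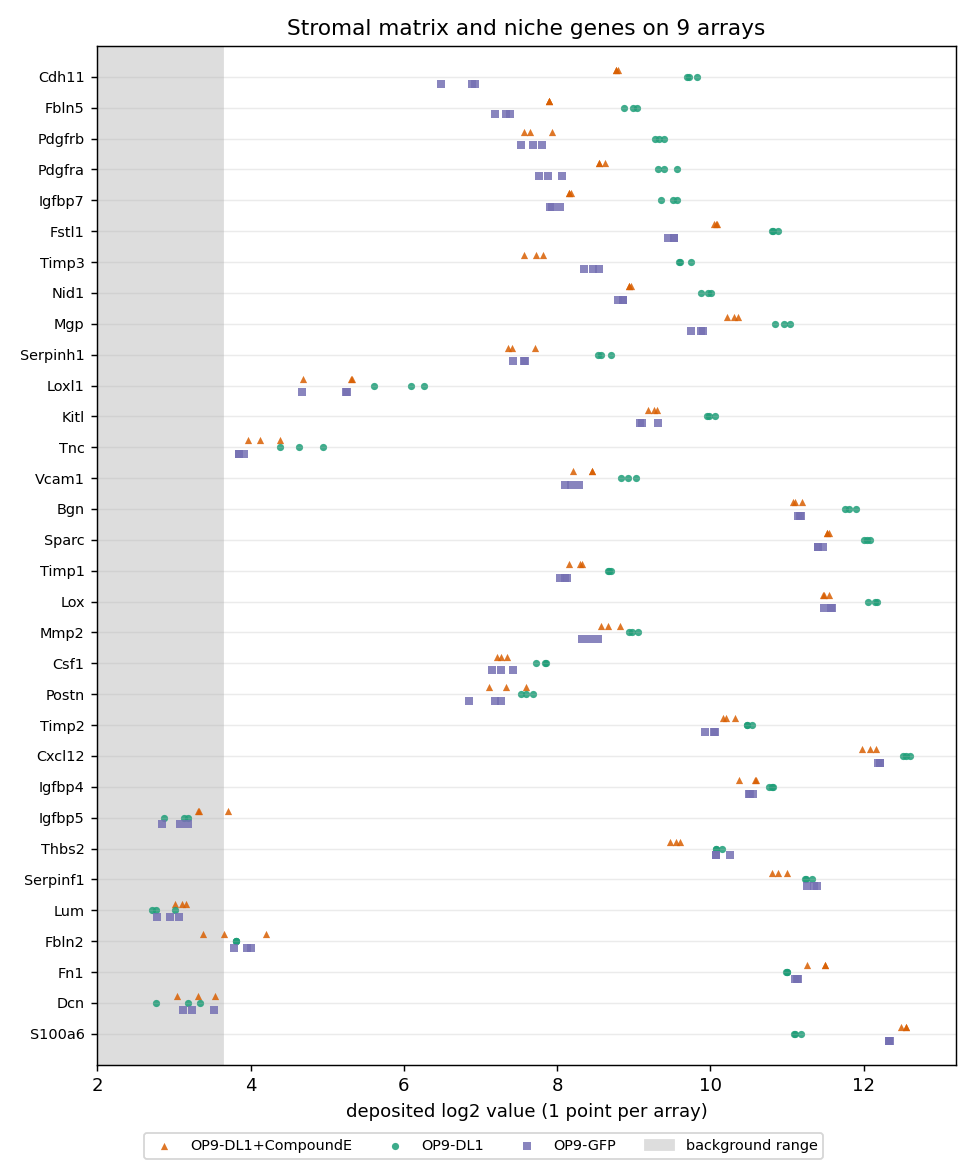
Deposited log2 value (x axis) of each of the 32 measured genes (y axis) on each of the 9 arrays, with 1 point per array and the range up to the bacterial control ceiling of 3.64 shaded. The OP9-DL1 points of Cdh11, between 9.70 and 9.82, sit right of both other groups, those of S100a6, between 11.09 and 11.19, sit left of both, and Dcn and Lum lie in the shaded range.

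On OP9-DL1 against OP9-GFP, most of the stromal genes were higher, by amounts that differed widely from gene to gene. By limma's test adjusted over all genes, 24 of the 32 were higher, 1 was lower and 7 did not pass, where 32.6% of all genes passed, 15.9% higher and 16.7% lower. The adhesion molecule Cdh11 had the largest rise, 7.89-fold, and the calcium-binding protein S100a6 was the member that fell, 2.31-fold. The median log2 difference was 0.60 over the 32 genes, against -0.02 over all genes tested. The groups did not overlap for 26 members, where the same held for 43.8% of all genes.

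The comparison sets culture on the Delta-like 1 feeder against culture on the control feeder. The ligand and any other difference between these feeders cannot be told apart. How much of the RNA came from feeder cells was not measured. Differences of at least 2-fold were seen for 11 members, 10 higher and 1 lower, where 6.87% of all genes passed at that size, 4.11% higher and 2.76% lower.

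Mesenchymal receptors and adhesion molecules were all higher, and Cdh11 and both platelet-derived growth factor receptors were among the largest rises. Cdh11 encodes a cadherin that joins mesenchymal cells to one another. Its log2 values were 9.72, 9.70 and 9.82 on OP9-DL1, against 6.93, 6.89 and 6.48 on OP9-GFP. Every OP9-DL1 array was above every OP9-GFP array, and the log2 difference was 2.98 (SE 0.10, limma adjusted p = 1.17e-12). A second probe set of Cdh11 gave 3.25. Pdgfrb, a platelet-derived growth factor receptor of perivascular cells, read 9.39, 9.33 and 9.28 on OP9-DL1, against 7.69, 7.81 and 7.53 on OP9-GFP. The groups were apart by 1.66 (SE 0.10, limma adjusted p = 9.89e-10), and its other probe set gave 1.96. Pdgfra, the companion receptor of many mesenchymal progenitors, read 9.56, 9.40 and 9.32 on OP9-DL1, against 7.76, 7.88 and 8.07 on OP9-GFP. Its log2 difference was 1.53 (SE 0.09), but 0.83 as the mean of its probe sets, since the other, dimmer ones gave 0.43 and 0.53. Vcam1, the endothelial and stromal ligand of Itga4-containing integrins, was higher by 0.75 (SE 0.09).

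The niche signals Cxcl12, Kitl and Csf1 were each higher, and of their receptors Kit was higher and Csf1r lower. Cxcl12 read 12.61, 12.56 and 12.52 on OP9-DL1, against 12.22, 12.19 and 12.22 on OP9-GFP. These groups did not overlap, with a log2 difference of 0.35 (SE 0.05, limma adjusted p = 1.19e-05) on this probe set and 0.77 on another probe set of the gene. Kitl read 10.06, 9.98 and 9.96 on OP9-DL1, against 9.08, 9.11 and 9.32 on OP9-GFP. It was higher on every OP9-DL1 array, by 0.83 (SE 0.07, limma adjusted p = 5.25e-08). Csf1 was higher by 0.52 (SE 0.09) on the probe set used, while none of its other probe sets passed, at 0.16 to 0.18. The mean of all its probe sets, the one used included, gave 0.26 (limma adjusted p = 0.0413). Kit was higher by 1.28 on OP9-DL1, and Csf1r was lower, with a log2 difference of -1.06. Itga4 was lower at -0.25, and Cxcr4 did not pass, at -0.10.

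Fbln5, Nid1, Serpinh1, Lox, Loxl1, Bgn and Mgp, which build, cross-link or stabilise the matrix, also rose. Fbln5, a fibulin needed to assemble elastic fibres, read 8.99, 8.88 and 9.04 on OP9-DL1, against 7.34, 7.39 and 7.19 on OP9-GFP. The groups were apart by 1.66 (SE 0.08, limma adjusted p = 7.22e-11). The mean with its other probe set, which was at background in every group, gave 0.97. Nid1, which links laminin to collagen IV in basement membranes, was higher by 1.11 (SE 0.06). The mean of its probe sets, which includes a probe set at background, gave 0.63. Serpinh1, the collagen chaperone of the endoplasmic reticulum, was higher by 1.08 (SE 0.10). The cross-linking enzymes Lox and Loxl1 were higher by 0.58 (SE 0.04) and 0.93 (SE 0.21), and the small proteoglycan Bgn by 0.66 (SE 0.05). Mgp, an inhibitor of calcification, was higher by 1.10 (SE 0.06).

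The fibulin Fbln2, fibronectin (Fn1) and the proteoglycans Dcn and Lum did not pass, the last 2 at -0.19 and -0.10 with both group means at background. Fbln2 lay near background, at 3.81 on all 3 OP9-DL1 arrays, against a mean of 3.91 on OP9-GFP, with overlapping groups. Fn1, the adhesive glycoprotein that integrins on progenitors bind, read 10.99, 11.00 and 11.00 on OP9-DL1, against 11.13, 11.10 and 11.15 on OP9-GFP. Its arrays did not overlap, with a log2 difference of -0.13 that missed the threshold (SE 0.06, limma adjusted p = 0.0939). It passed in 4 alternatives, among them the fit without OP9-DL1+CompoundE replicate 3 (adjusted p = 0.0157) and the mean of its probe sets (-0.27, adjusted p = 0.00136).

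The matricellular proteins, which modulate cell contact with the matrix more than they build it, were mixed. Fstl1, a secreted follistatin-like glycoprotein, read 10.80, 10.82 and 10.89 on OP9-DL1, against 9.52, 9.45 and 9.52 on OP9-GFP. It was higher on every OP9-DL1 array, by 1.33 (SE 0.05, limma adjusted p = 4.00e-12). Sparc, a collagen-binding glycoprotein, was higher by 0.61 (SE 0.04), or by 0.38 as the mean of its probe sets. Tnc, a tenascin, and Postn, a periostin, were higher by 0.78 (SE 0.16) and 0.50 (SE 0.13), with Tnc dim at a mean of 4.65 on OP9-DL1 and 3.87 on OP9-GFP. Thbs2, an antiangiogenic thrombospondin, read 10.15, 10.07 and 10.08 on OP9-DL1, against 10.07, 10.07 and 10.26 on OP9-GFP. Its groups overlapped, with a log2 difference of -0.03 and a 95% interval of -0.17 to 0.10.

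Metalloproteinase inhibitors and their target rose together. Timp3, the inhibitor that stays bound to the matrix, read 9.59, 9.75 and 9.60 on OP9-DL1, against 8.55, 8.47 and 8.35 on OP9-GFP. It was higher on each OP9-DL1 array, by 1.19 (SE 0.08, limma adjusted p = 5.71e-09), and its 3 other probe sets above background gave 1.64, 1.27 and 0.83. The soluble inhibitors Timp1 and Timp2 were higher by 0.59 (SE 0.07) and 0.49 (SE 0.06), and the gelatinase Mmp2 by 0.56 (SE 0.08). For Timp2 the mean of the probe sets gave 0.31.

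The binding proteins of insulin-like growth factors differed from one another. Igfbp7 read 9.51, 9.36 and 9.57 on OP9-DL1, against 7.94, 8.04 and 7.91 on OP9-GFP. Its groups were apart by 1.52 (SE 0.07, limma adjusted p = 7.55e-11), or 0.98 as the mean of its probe sets. Igfbp4 was higher by 0.27 (SE 0.06) on the probe set used. Its other probe sets gave 0.05 to 0.49, and all but the lowest of them passed. Igfbp5, at background in both groups, did not pass at 0.02.

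The remaining secreted and cytoplasmic members were not higher. Serpinf1, the antiangiogenic serpin known as PEDF, read 11.25, 11.23 and 11.33 on OP9-DL1, against 11.35, 11.39 and 11.26 on OP9-GFP. Its groups overlapped, at -0.06 with a 95% interval of -0.18 to 0.05. S100a6 read 11.11, 11.09 and 11.19 on OP9-DL1, against 12.33, 12.33 and 12.35 on OP9-GFP. Every OP9-DL1 array was lower, with a log2 difference of -1.21 (SE 0.04, limma adjusted p = 1.21e-12). Myeloid cells are known to express S100a6 too.

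The changes were not of 1 size. Over the 29 genes above background the log2 difference of OP9-DL1 against OP9-GFP had a median of 0.66, quartiles of 0.49 and 1.11, and an SD between genes of 0.76, beside a median SE per gene of 0.07 and a largest SE of 0.21. The 95% interval contained the median of 0.66 for 10 genes (Sparc, Bgn, Timp1, Postn, Lox, Loxl1, Mmp2, Vcam1, Csf1 and Tnc). It lay wholly above the median for 11 genes and wholly below it for 8. The median was taken from these same genes and was Bgn's own difference, so genes on both sides of it are built in. The same holds for the medians of the other comparisons. These SEs and intervals cover the spread between arrays for 1 probe set per gene. Probe sets of the same gene differed too, as for Cxcl12 at 0.35 and 0.77, on either side of the median. Whether a change in the amount of a single RNA pool, such as that of the feeder, could give this spread was not tested. How far cells other than the feeder express each gene was not measured here, and its part in the spread was not tested.

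Each array's own shift of the list was even within a group. The median deviation of the 29 genes from their means over the 9 arrays was -0.14, -0.12 and -0.20 with CompoundE, 0.38, 0.42 and 0.40 on OP9-DL1, and -0.23, -0.26 and -0.26 on OP9-GFP. The OP9-DL1 arrays stood apart from the other 6. With that shift taken off each array, the difference of OP9-DL1 against OP9-GFP left for Cdh11 was 2.33, for Fbln5 1.02 and for Pdgfrb 1.01. It was -0.03 for Sparc, 0.01 for Bgn and -0.07 for Lox. For Thbs2, Serpinf1, Fn1 and S100a6 it was -0.68, -0.71, -0.78 and -1.86. Before the shift was taken off, the differences of those last genes were -0.03, -0.06, -0.13 and -1.21, and only that of S100a6 passed. The shift is the median of these same 29 genes, so values of both signs are built in. So is a small value for Bgn, whose own difference was the median. Across the 29 genes, the mean log2 value and the difference had a Pearson correlation of -0.26 and a Spearman correlation of -0.36, given as a description because the points share arrays.

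**Figure D2:**
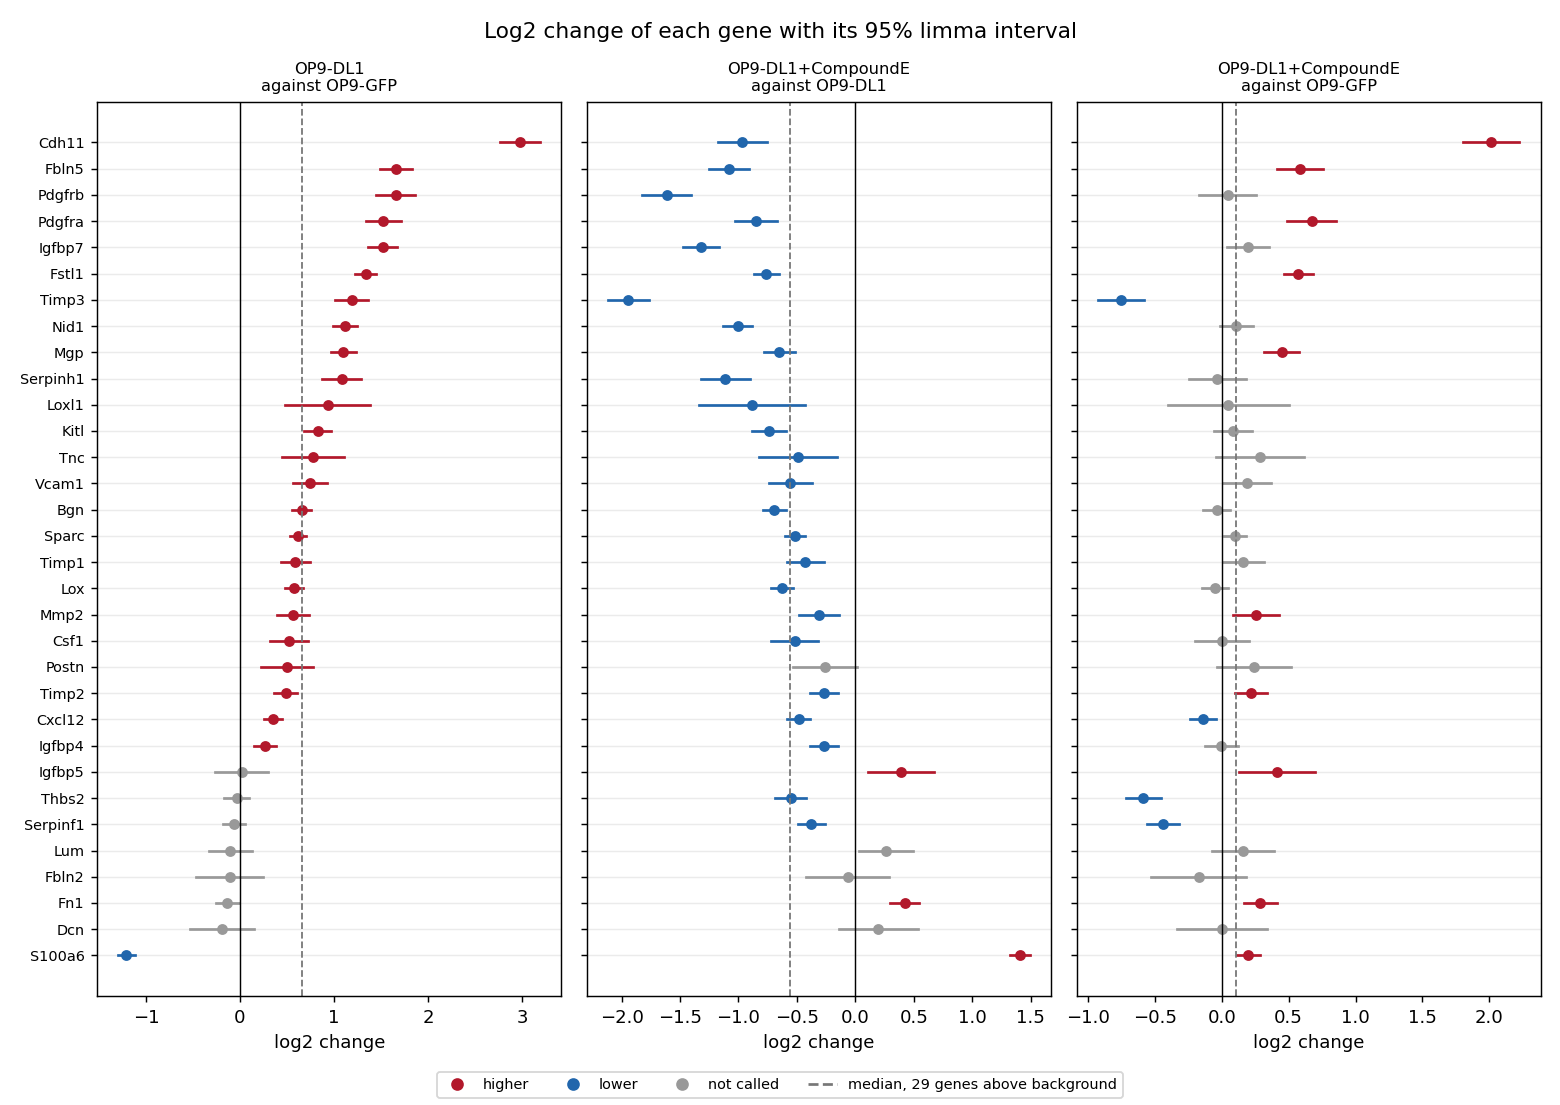
Log2 difference (x axis) of each of the 32 genes (y axis) in 3 comparisons, with the 95% limma interval as a bar and the median of the 29 genes above background as a dashed line. On OP9-DL1 against OP9-GFP the points run between -1.21 for S100a6 and 2.98 for Cdh11, and 10 of the 29 intervals contain the median of 0.66.

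With CompoundE on OP9-DL1, against OP9-DL1 alone, most of the stromal genes were lower, again by unequal amounts. Of the 32 members 25 were lower, 3 were higher and 4 did not pass, where 46.7% of all genes passed, 21.6% lower and 25.1% higher. Timp3 fell furthest, 3.84-fold, and S100a6 rose 2.65-fold. The median log2 difference was -0.54, against 0.08 over all genes. Groups did not overlap for 28 members (52.6% of all genes), and 7 members passed at 2-fold or more (9.42% of all genes, 4.95% lower and 4.47% higher). This comparison shares the OP9-DL1 arrays with the one above, so a high value on those arrays enters both with opposite signs.

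Among receptors and adhesion molecules the order differed from that of the rises. Pdgfrb read 7.65, 7.94 and 7.57 with CompoundE, against 9.39, 9.33 and 9.28 on OP9-DL1, a log2 difference of -1.61 (SE 0.10, limma adjusted p = 9.16e-10). Cdh11 read 8.80, 8.77 and 8.77 with CompoundE, against 9.72, 9.70 and 9.82 on OP9-DL1. It fell by 0.97 on the log2 scale (SE 0.10, limma adjusted p = 5.07e-07), with no overlap in either gene. Pdgfra and Vcam1 fell by 0.85 (SE 0.09) and 0.56 (SE 0.09), and the mean of the probe sets of Pdgfra gave -0.44.

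The niche signals Cxcl12, Kitl and Csf1 fell by 0.49 (SE 0.05), 0.74 (SE 0.07) and 0.52 (SE 0.09). For Csf1 the mean of the probe sets gave -0.31, and none of its 3 other probe sets passed (adjusted p of 0.061 to 0.366). Of their receptors, Kit fell by 2.08 and Csf1r rose by 1.29, while Cxcr4, at 0.04, and Itga4, at 0.07, did not pass.

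Timp3 read 7.57, 7.72 and 7.82 with CompoundE, against 9.59, 9.75 and 9.60 on OP9-DL1. The groups were far apart, with a log2 difference of -1.94 (SE 0.08, limma adjusted p = 8.26e-12). The other inhibitors Timp1 and Timp2 fell by 0.43 (SE 0.07) and 0.27 (SE 0.06), and Mmp2 by 0.31 (SE 0.08). Igfbp7, Serpinh1, Fbln5 and Nid1 fell by 1.32, 1.11, 1.08 and 1.01. As the mean of the probe sets, the differences of Igfbp7, Fbln5 and Nid1 were -0.87, -0.65 and -0.65. For Fbln5 and Nid1 these means include a probe set at background.

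Thbs2, Serpinf1 and Fn1, which had not passed on OP9-DL1 against OP9-GFP, changed with CompoundE, and S100a6 changed in both comparisons. Thbs2 read 9.61, 9.48 and 9.55 with CompoundE, against 10.15, 10.07 and 10.08 on OP9-DL1, with no overlap and a log2 difference of -0.55 (SE 0.06, limma adjusted p = 1.46e-06). As the mean of its probe sets this was -0.21, and its other probe sets, at 0.11 and -0.17, did not pass. Serpinf1 fell by 0.38 (SE 0.06). Fn1 read 11.50, 11.50 and 11.26 with CompoundE, against 10.99, 11.00 and 11.00 on OP9-DL1, and was higher by 0.42 (SE 0.06, limma adjusted p = 1.27e-05). S100a6 read 12.56, 12.49 and 12.56 with CompoundE, against 11.11, 11.09 and 11.19 on OP9-DL1, and was higher by 1.41 (SE 0.04, limma adjusted p = 9.52e-14). Igfbp5 also passed as higher, at 0.39, with both group means at background, and lost the call without OP9-DL1 replicate 3 (adjusted p = 0.118) or OP9-DL1+CompoundE replicate 2 (adjusted p = 0.113). The mean of its probe sets gave 0.16 (adjusted p = 0.143).

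Tnc fell by 0.49 (SE 0.16) with overlapping arrays, gave -0.20 on the log2(linear value + 32) scale, and lost the call without OP9-DL1 replicate 2 (adjusted p = 0.0993) or without OP9-DL1+CompoundE replicate 2 (adjusted p = 0.0709). Postn, at -0.26, did not pass (limma adjusted p = 0.115). Without OP9-DL1+CompoundE replicate 1 it did, at -0.38 (adjusted p = 0.0289).

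Over the 29 genes above background the median log2 difference with CompoundE against OP9-DL1 was -0.56, with quartiles of -0.88 and -0.38 and an SD between genes of 0.60. The 95% interval contained that median for 10 genes, lay above it for 8 and below it for 11.

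In the OP9-DL1+CompoundE cultures against the OP9-GFP cultures most stromal genes did not pass the test. Of the 32 members 10 were higher, 4 were lower and 18 did not pass, where 22.7% of all genes passed, 12.1% higher and 10.6% lower. Cdh11 stayed 4.04-fold higher, and Timp3 was 1.68-fold lower. The median log2 difference was 0.14, against 0.05 over all genes. The groups did not overlap for 19 members (34.8% of all genes), and 1 member, Cdh11, passed at 2-fold or more (1.36% of all genes, 0.605% higher and 0.753% lower).

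Cdh11 read 8.80, 8.77 and 8.77 with CompoundE, against 6.93, 6.89 and 6.48 on OP9-GFP, a log2 difference of 2.01 (SE 0.10, limma adjusted p = 1.73e-09). Its values with CompoundE lay between those of the other groups without touching either. Pdgfra, Fbln5, Fstl1 and Mgp were higher by 0.67, 0.59, 0.57 and 0.45, and each likewise lay between its OP9-DL1 and OP9-GFP values. As the mean of the probe sets, Pdgfra gave 0.39 and Fbln5, with its probe set at background included, gave 0.32. Pdgfrb read 7.65, 7.94 and 7.57 with CompoundE, against 7.69, 7.81 and 7.53 on OP9-GFP. These overlapped, at 0.04 with a 95% interval of -0.17 to 0.25.

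Timp3 read 7.57, 7.72 and 7.82 with CompoundE, against 8.55, 8.47 and 8.35 on OP9-GFP, a log2 difference of -0.75 (SE 0.08, limma adjusted p = 7.47e-06). Its other probe sets gave -0.68, -0.87 and -0.19. The last of these was at background in both groups and did not pass (limma adjusted p = 0.386 over all probe sets). Thbs2 and Serpinf1 were lower by log2 differences of -0.59 (SE 0.06) and -0.44 (SE 0.06), and Fn1 and S100a6 higher by 0.29 (SE 0.06) and 0.20 (SE 0.04). For Fn1 the mean of the probe sets gave 0.12 (adjusted p = 0.124), and for Thbs2 it gave -0.32. The other Thbs2 probe sets, at -0.16 and -0.20, did not pass. Of the niche signal receptors, Kit was lower at -0.80 and Itga4 at -0.19, and Csf1r was higher by 0.23.

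Calls near the threshold in this comparison rested on single arrays or settings. Cxcl12 passed as lower at -0.14 (SE 0.05, limma adjusted p = 0.0399). That call was lost without any 1 of 7 arrays: each OP9-GFP replicate, OP9-DL1 replicates 1 and 2, and OP9-DL1+CompoundE replicates 1 and 2. Without the last of these the difference was -0.09 (adjusted p = 0.155), and another probe set of Cxcl12 gave 0.02. Mmp2, at 0.26, lost its call without OP9-GFP replicates 1 or 3 or OP9-DL1+CompoundE replicates 1 or 2 (adjusted p up to 0.127). Timp2, at 0.22, lost it without OP9-GFP replicate 3 (adjusted p = 0.0545) and without the intensity trend (adjusted p = 0.0532), and the mean of its probe sets gave 0.08 (adjusted p = 0.381). Igfbp5, at 0.41, lost it without OP9-GFP replicates 1 or 3 or OP9-DL1+CompoundE replicate 2 (adjusted p up to 0.156), with both means at background.

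Read over the 3 comparisons, 14 members were higher on OP9-DL1 than on OP9-GFP, lower with CompoundE than on OP9-DL1, and not called with CompoundE against OP9-GFP, a pattern held by 8.24% of all genes. The first 2 comparisons share the OP9-DL1 arrays, so opposite calls in them are not independent. These 14 were Sparc, Bgn, Igfbp4, Igfbp7, Serpinh1, Timp1, Lox, Loxl1, Pdgfrb, Vcam1, Kitl, Csf1, Nid1 and Tnc. A further 7 (Fstl1, Fbln5, Timp2, Mmp2, Pdgfra, Mgp and Cdh11) had the same first steps and were higher with CompoundE than on OP9-GFP (1.02% of all genes), and 2 (Cxcl12 and Timp3) were lower there (4.68% of all genes). S100a6 was the member called lower on OP9-DL1 and higher with CompoundE in both comparisons (5.55% of all genes). Dcn, Lum and Fbln2 passed in none of the 3 (47.6% of all genes). A miss in the last comparison does not show equal levels. Over the 29 genes above background its log2 differences had a median of 0.11 and an SD between genes of 0.48, and 16 intervals contained that median.

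Promoters are shown for 5 genes whose patterns differ on the probe sets used. Fbln5 and Cxcl12 were both higher on OP9-DL1 by unequal amounts, and Timp3 was lowest with CompoundE. Thbs2 was called as lower with CompoundE against either other group, on that probe set only, and S100a6 was lower on OP9-DL1. Each promoter is the 250 bases before the RefSeq gene start (assembly GRCm38.p6), written 5′ to 3′ on the gene's strand. A match to the RBPJ core motif or the TATA motif is in capitals. The positions are chr12:101819120-101819369 on the minus strand for Fbln5, chr6:117168285-117168534 on the plus strand for Cxcl12, chr10:86300162-86300411 on the plus strand for Timp3, chr17:14694263-14694512 on the minus strand for Thbs2, and chr3:90612644-90612893 on the plus strand for S100a6.
Fbln5: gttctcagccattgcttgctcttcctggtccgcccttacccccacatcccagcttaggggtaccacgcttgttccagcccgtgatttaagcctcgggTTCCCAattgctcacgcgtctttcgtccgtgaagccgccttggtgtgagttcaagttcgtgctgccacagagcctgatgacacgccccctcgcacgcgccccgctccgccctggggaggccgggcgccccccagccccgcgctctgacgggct
Cxcl12: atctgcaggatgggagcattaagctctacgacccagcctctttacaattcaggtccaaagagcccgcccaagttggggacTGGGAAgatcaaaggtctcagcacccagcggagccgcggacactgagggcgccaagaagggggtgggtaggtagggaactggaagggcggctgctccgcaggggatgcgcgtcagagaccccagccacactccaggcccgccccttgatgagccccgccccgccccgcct
Timp3: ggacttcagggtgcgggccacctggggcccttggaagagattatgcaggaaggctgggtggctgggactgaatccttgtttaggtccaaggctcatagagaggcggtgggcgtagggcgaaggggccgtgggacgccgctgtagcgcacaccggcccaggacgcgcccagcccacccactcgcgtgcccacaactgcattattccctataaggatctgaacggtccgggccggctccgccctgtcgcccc
Thbs2: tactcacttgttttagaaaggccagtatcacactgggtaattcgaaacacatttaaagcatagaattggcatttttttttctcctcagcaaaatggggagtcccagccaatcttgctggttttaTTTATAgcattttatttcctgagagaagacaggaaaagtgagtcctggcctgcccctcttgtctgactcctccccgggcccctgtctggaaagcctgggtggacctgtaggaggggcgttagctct
S100a6: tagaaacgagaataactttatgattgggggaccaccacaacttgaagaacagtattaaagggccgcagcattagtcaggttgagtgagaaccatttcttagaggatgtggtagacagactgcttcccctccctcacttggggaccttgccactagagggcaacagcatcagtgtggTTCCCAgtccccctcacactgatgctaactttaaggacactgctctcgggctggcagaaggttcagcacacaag

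RBPJ is the DNA-binding protein through which cleaved Notch acts. Its core TGGGAA, searched on both strands, was found in 7 of the 22 members that RefSeq's promoter table matched (31.8%), and in 21.5% of all 27025 promoters. The 7 were Cxcl12, Fbln5, Kitl, Nid1, S100a6, Timp1 and Tnc, so genes that rose and the gene that fell both held it. TGANTCA, bound by AP-1, was in 0 of the 22 and in 6.85% of all promoters. GGAATG, bound by TEAD factors, was in 3 of the 22 (13.6%) and in 12.6% of all, and TATAAA in 4 of the 22 (18.2%) and in 13.0% of all. A match describes letters in this window and is not evidence of binding.

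Other probe sets of the same genes were mostly of like sign. Above background there were 42 further probe sets of 22 members. On OP9-DL1 against OP9-GFP, 38 of these belonged to called members, of which 36 had the same direction, 28 passed over all probe sets and 0 passed in the opposite direction. With CompoundE against OP9-DL1, 39 of 42 had the same direction and 28 passed. With CompoundE against OP9-GFP, 15 of 18 had the same direction and 5 passed. Exceptions to the direction on OP9-DL1 were a dim probe set of Sparc, at -0.24, and 1 of Timp2, at -0.01. The sizes varied, so an amount given for 1 probe set is not the amount for its gene.

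**Figure D3:**
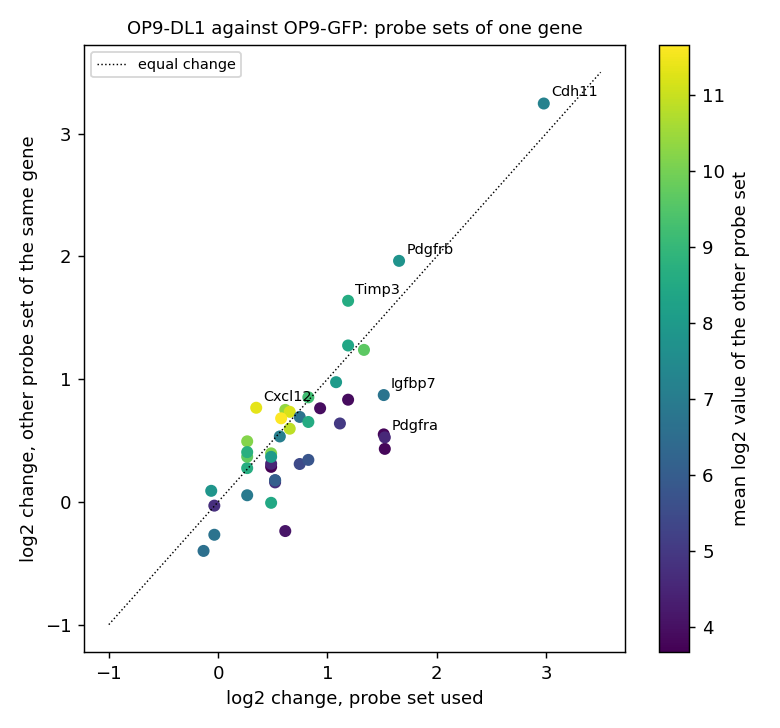
Log2 difference of OP9-DL1 against OP9-GFP on the probe set used (x axis) and on each other probe set of the same gene above background (y axis), 1 point per other probe set, coloured by its mean log2 value, with a dotted line of equal change. Cdh11 lies at 2.98 and 3.25, while Pdgfra lies well under the line, at 1.53 against 0.43 and 0.53.

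Other lists of matrix, niche and contractile genes were read beside these members. On OP9-DL1 against OP9-GFP the shares of all genes were 15.9% higher and 16.7% lower. Of 10 fibrillar and basement membrane collagens, 5 were higher and 0 lower on OP9-DL1 against OP9-GFP, with a median of 0.39, and 10 of 10 were lower with CompoundE against OP9-DL1, where 21.6% of all genes were lower. Of 36 other matrix proteins and enzymes, 13 were higher and 8 lower on OP9-DL1, with a median of 0.06. In that list Nid2, the partner of Nid1 in basement membranes, was higher by 1.75. Plod1, Igfbp6 and the versican core protein Vcan were lower, at -1.76, -1.70 and -1.63. Among 22 further niche factors and receptors 10 were higher and 5 lower, with the cytokine Il6 at 3.40 and the Notch ligand Jag1 at 1.96. Of 17 contractile and YAP or SRF target genes 12 were higher and 1 lower, with Ccn2, a matricellular growth factor, at 2.08.

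Markers of megakaryocytes were higher and those of macrophages lower on OP9-DL1, where 15.9% of all genes were higher and 16.7% lower. The 12 megakaryocyte markers were all higher on OP9-DL1 than on OP9-GFP and all lower with CompoundE than on OP9-DL1. Their summed linear level was 6965 to 7259 with CompoundE, 26005 to 26111 on OP9-DL1 and 9796 to 9954 on OP9-GFP, and none was at background. Of 12 macrophage markers 11 were lower on OP9-DL1, with sums of 37520 to 38471 with CompoundE, 15716 to 16033 on OP9-DL1 and 32538 to 33336 on OP9-GFP, and Marco at background in every group. The sums of the 32 stromal genes were 32894 to 33729, 41679 to 42102 and 31788 to 32131 in the same order of groups.

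Megakaryocytes and platelets are known to carry Sparc and Cxcl12, and macrophages to make Fn1. OP9 cells can turn into adipocytes, and of 8 adipocyte markers 4 were higher and 2 lower on OP9-DL1. Their sums were 5504 to 5565 with CompoundE, 7801 to 8037 on OP9-DL1 and 6861 to 7217 on OP9-GFP, with Cidec at background throughout. Of 10 endothelial markers 6 were higher and 1 lower on OP9-DL1, against 15.9% and 16.7% of all genes, with sums of 409 to 473 with CompoundE, 1513 to 1689 on OP9-DL1 and 591 to 608 on OP9-GFP. The endothelial genes Emcn, Cldn5 and Plvap were at background in every group, and Cdh5 in both OP9-DL1 groups. The part of these cell types in the stromal gene differences was not tested.

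**Figure D4:**
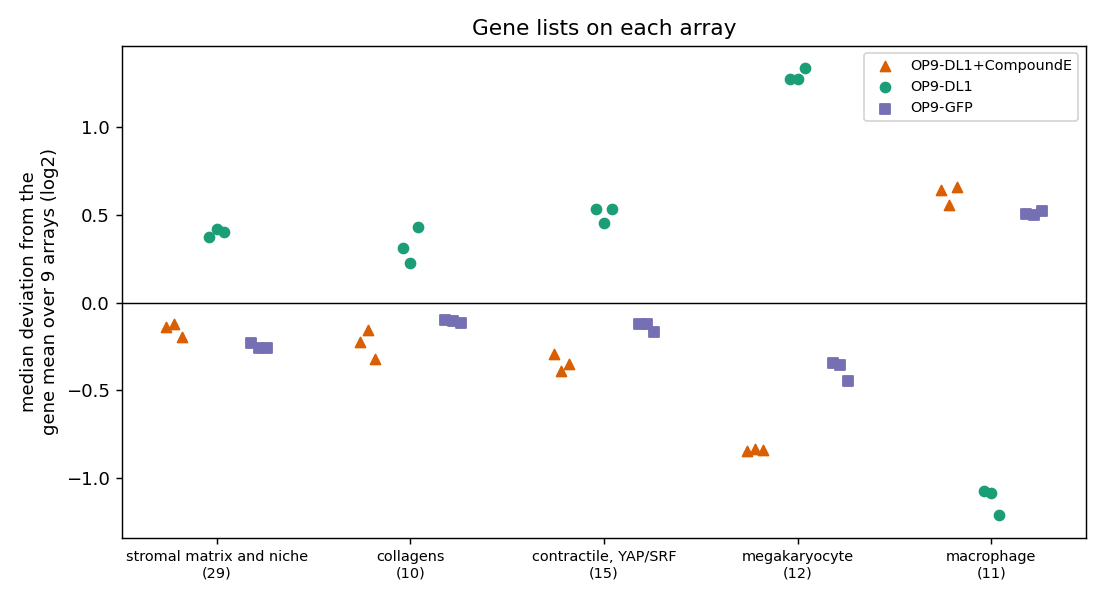
Median deviation of each gene list from its gene means over the 9 arrays (y axis, log2), 1 point per array, for 5 lists (x axis, with the number of genes above background). For the stromal matrix and niche genes the OP9-DL1 arrays lie at 0.38 to 0.42, above the arrays with CompoundE at -0.20 to -0.12 and those on OP9-GFP at -0.26 to -0.23, while the macrophage list is lowest on OP9-DL1.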

How the data were processed

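RNA from the non-adherent cells of 9 co-cultures was measured on 1-colour oligonucleotide arrays. Amplification and biotin labelling started from 25 ng of RNA, per the labels' protocols. The deposited table gives a log2 value for each probe set on each array. MAS5 and GCRMA 2.4.1 were used, per the submitters' processing notes, with no role or order given, so the step that made the values is unknown here. If GCRMA did, it shrinks dim values towards a floor, and folds against dim groups are understated.

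Groups and replicate numbers came from the titles. The 45101 probe sets comprised 64 array controls, 34945 with a single gene symbol, 932 with several and 9160 without one. Symbols were updated through the Entrez ID with RefSeq names of GRCm38.p6 for 34741. The probe set with the highest mean represented each of 18193 genes.

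All genes were fitted on the 9 arrays with limma 3.58.1 in R 4.3.3 (lmFit, then eBayes with an intensity trend), with no covariate, filter or further normalization. Benjamini-Hochberg adjustment ran over all genes within each comparison, and a call needs an adjusted p under 0.05. SE and 95% intervals come from this model. The background ceiling, the highest of 27 bacterial control probe sets, was set after the data were seen. The fit was also run on simulated, independent normal values without the ties seen in these data, and no result here rests on that run.

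Every measured member is named. From each other list the rule allows up to 4 called genes with the largest differences on OP9-DL1 against OP9-GFP, and it adds the receptors Kit, Cxcr4, Csf1r and Itga4. The members and lists were chosen with earlier results of these data known. Alternatives were log2(linear value + 32), quantile normalization, centring on array medians, only genes above background, averaging the probe sets of a gene, testing all probe sets, no intensity trend, a fit of the 6 arrays compared alone, a replicate block, only genes with no equal values within a group, a 2-fold threshold, and each array left out in turn. The values of the other probe sets of each gene were added after the data were seen.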

Additional observations from a re-analysis of the deposited data

How the results depend on the processing

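Over 1797 values of single members under these alternatives, 1750 kept their side of the threshold, 35 lost the call and 12 gained it. Among values called in the main fit or in the alternative, 0 reversed direction. Differences called in neither could change sign, as for Thbs2 on OP9-DL1 against OP9-GFP, which ran between -0.11 and 0.03. Adding a 2-fold threshold left 11 members called on OP9-DL1 against OP9-GFP, 7 with CompoundE against OP9-DL1 and 1 with CompoundE against OP9-GFP, in place of 25, 28 and 14; fewer pass by construction. Leaving out 1 array at a time gave 25 to 26, 26 to 29 and 10 to 16. Averaging the probe sets of each gene moved the median difference of the members to 0.52 on OP9-DL1 against OP9-GFP and to -0.45 with CompoundE against OP9-DL1; the dimmer probe sets averaged in had smaller differences for several genes, and the cause was not tested further. With the replicate number as a block the counts were 25, 28 and 14. Same-numbered arrays did not deviate together (correlations of -0.115 to 0.119), and differently numbered arrays gave -0.144 to 0.0947. With 3 arrays per group a small shared effect could go unseen, so whether the numbers pair the samples remains unknown. For Loxl1 and Tnc, both dim, log2(linear value + 32) gave 0.55 and 0.30 on OP9-DL1 against OP9-GFP, in place of 0.93 and 0.78. Calls were gained for Lum with CompoundE against OP9-DL1 (0.35 without OP9-DL1 replicate 2), and, with CompoundE against OP9-GFP, for Fbln2 (-0.40 without OP9-DL1+CompoundE replicate 1), for Timp1 and Vcam1 (0.22 and 0.28 without OP9-DL1+CompoundE replicate 3) and for Igfbp7 (0.21 with arrays centred on their medians). The 3 arrays per group and the closeness of Dcn, Lum, Igfbp5, Fbln2 and Tnc to background limit what can be said of them.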
